A study of Homo sapiens with 5 samples.

Results

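Among the 21113 peaks of the TEAD4 cistrome of LX-2 cells, 3575 (16.9%) held exactly 1 copy of the 7-base TEAD core ACATTCC and no AP-1 motif, and they are called single-core peaks here. The core was read from the binding site of the TEAD reporter used in the study, it was searched on both strands, and a peak was counted as single-core when the only match lay within 100 bp of its summit, with neither TGACTCA nor TGAGTCA in the same 201-bp window. The rule used sequence and position of the summit and no measured level. LX-2 is an established human hepatic stellate cell line that models the myofibroblast of the fibrotic liver, and all samples had received the solvent DMSO. Chromatin of 3 immunoprecipitations with an antibody to TEAD4 and 2 inputs was sequenced, with 1 input shared by replicates 1 and 2 and the other for replicate 3. The authors left replicate 2 out as not concordant, and the list analysed here joins replicates 1 and 3 into 1 value per peak, so no spread between replicates could be given.

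TEAD proteins are DNA-binding partners of the coactivators YAP1 and WWTR1 (TAZ), which the Hippo kinases keep out of the nucleus. In activated stellate cells and myofibroblasts, YAP1 and TEAD are known to act on genes for matrix, for the contractile cytoskeleton and for growth factors. AP-1, the dimer of FOS and JUN proteins, binds many of the same enhancers, so that peaks with a TEAD core and without an AP-1 motif are those in which the TEAD site stands without this partner's exact sequence.

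The single-core peaks with the highest signal value, the peak caller's measure of enrichment, show what the site looks like. The bases run 5′ to 3′ on the strand of the core, with the core in capitals, from hg38. Stretches that touch an exon of a protein-coding gene are shown shorter.
AMOTL2, chr3:134374499-134374528, minus strand: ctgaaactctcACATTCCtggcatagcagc
ESRP2, chr16:68237696-68237742, minus strand: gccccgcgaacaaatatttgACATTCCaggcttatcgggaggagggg
MYL12A, chr18:3247488-3247517, minus strand: tgcctggccgcACATTCCagggcacggcga
IGFBP3 nearest, chr7:46145594-46145640, minus strand: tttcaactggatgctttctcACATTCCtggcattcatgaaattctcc
FOXI1 nearest, chr5:170151254-170151300, plus strand: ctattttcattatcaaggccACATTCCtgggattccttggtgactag
ZNF367 nearest, chr9:96420667-96420713, minus strand: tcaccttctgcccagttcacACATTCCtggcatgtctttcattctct
SLC38A2 nearest, chr12:46494594-46494640, minus strand: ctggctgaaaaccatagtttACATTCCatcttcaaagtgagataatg
PRICKLE1 nearest, chr12:42961509-42961555, plus strand: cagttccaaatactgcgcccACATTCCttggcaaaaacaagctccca
NDUFA12, chr12:94983868-94983914, minus strand: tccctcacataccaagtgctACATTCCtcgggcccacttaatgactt
With the peak nearest to HOXC13, printed further on with its second copy of the core, these are the 10 strongest. The core was followed by A or T in all 10, and then by G in 7 of them. In the other 3, nearest to SLC38A2, PRICKLE1 and NDUFA12, the next base was T, T and C.

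The 10 strongest single-core peaks had signal values from 632 to 860, against a median of 79.1 over all of them, and ranked from 3 to 42 among all peaks of the list. The one with the highest value, 860, lay on chromosome 12 inside the lncRNA gene SLC38A4-AS1, while the nearest transcription start site (TSS) of a protein-coding gene, that of the amino acid transporter SLC38A2, was 121520 bp away. The next, with a value of 804, lay 82 bp from a TSS of ESRP2, a splicing regulator of epithelial cells, inside that gene. The peaks at AMOTL2 (733), which codes for a scaffold of the Hippo pathway, and at MYL12A (671), which codes for a myosin regulatory light chain, covered a TSS. The other 6 had their nearest protein-coding TSS between 2037 bp (ZNF367, signal value 632) and 370916 bp (PRICKLE1, 732) away, with HOXC13 (726), NDUFA12 (661), IGFBP3 (655) and FOXI1 (648) between. The core of 9 of the 10 lay within 18 bp of the summit, and that of the strongest lay 41 bp from it.

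The TEAD core lay close to the summit. The median distance between the centre of the core and the summit was 17 bp (quartiles 9 and 30 bp). The core was within 10 bp of the summit in 1074 single-core peaks (30.04%, Wilson 95% interval 28.6 to 31.6%), within 25 bp in 2432 (68.0%, interval 66.5 to 69.5%) and within 50 bp in 3168 (88.6%, interval 87.5 to 89.6%). In windows of the same width 2000 bp from the summits, 1035 distinct single cores were found, and 27.4% of them lay within 25 bp of the middle. The same 7 bases read backwards, CCTTACA, served as a control of equal composition. In the 226 peaks without AP-1 motif that held it once and were not single-core peaks, it lay within 25 bp of the summit in 51 (22.6%, interval 17.6 to 28.4%). The odds ratio of the core against this control was 7.30 (95% confidence interval 5.22 to 10.2, logistic model with errors clustered by chromosome, p = 3.38e-31, n = 3575 and 226 peaks). As peaks are not replicates of a condition, p-values here compare peaks within 1 list, and intervals on shares cover counting error only.

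Read along the strand of the core, the cores were not spread evenly about the summit. Between 10 and 19 bp, 428 cores lay 5′ of the summit and 609 lay 3′ of it. Between 20 and 29 bp, this turned round, with 467 cores 5′ and 183 cores 3′ of the summit. The core was on the plus strand of the chromosome in 1725 peaks (48.3%, interval 46.6 to 49.9%) and on the minus strand in 1850. These offsets are a description, chosen after the values were seen.

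**Figure D1:**
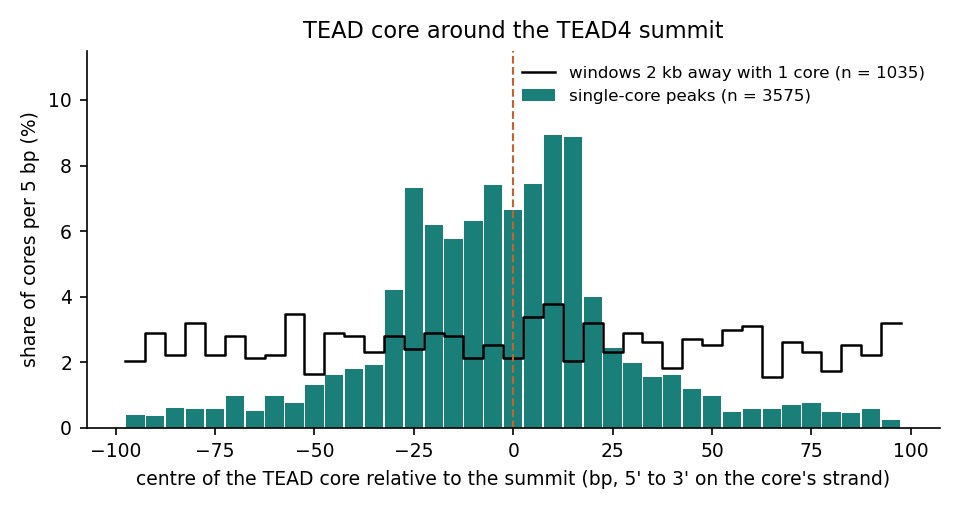
Share of TEAD cores per 5 bp (y axis, percent) by the position of the centre of the core relative to the summit (x axis, bp, along the strand of the core), in 3575 single-core peaks (bars) and in 1035 windows 2 kb away from a summit (line). The cores of single-core peaks are gathered from about 30 bp on the 5′ side to about 20 bp on the 3′ side of the summit, while those of the distant windows are spread over the whole window.

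The bases beside the core differed from those beside cores outside peaks. On the 3′ side the core was followed by T in 1505 single-core peaks (42.1%), by A in 1467 (41.04%), by C in 435 (12.2%) and by G in 168 (4.70%). In the distant windows T followed 32.7%, A 36.1%, C 28.9% and G 2.32% of the 1035 cores. In sum, A or T followed 83.1% of the cores in single-core peaks (interval 81.9 to 84.3%) and 68.8% of the cores in the distant windows (interval 65.9 to 71.5%), an odds ratio of 2.24 (95% confidence interval 1.92 to 2.60, logistic model clustered by chromosome, p = 3.74e-25, n = 3575 and 1035 cores). The base after that was G in 46.2% of the single-core peaks and in 20.2% of the distant windows, the widest gap at any of the 15 positions looked at. The base before the core was C in 43.3% and 28.2%. The core itself contains CATTCC, the letters of the M-CAT element of muscle genes, which TEAD factors bind. All 3 were present in 713 single-core peaks (19.9%, interval 18.7 to 21.3%) and in 55 of the distant windows (5.31%, interval 4.11 to 6.85%), and none of the 3 in 299 (8.36%) and 211 (20.4%). The choice of C and G was made after seeing these values, so no test was made of them. C was also more frequent in single-core peaks 2 and 3 bases before the core, at 27.8% and 26.6%. In the distant windows it stood there in 18.3% and 18.1%.

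The signal value followed the same bases within the single-core peaks. With A or T after the core, the signal value was 1.197-fold that with C or G (95% confidence interval 1.11 to 1.29, linear model of the log2 signal value within the single-core peaks, with the distance of the core, a TSS within 2.5 kb and the GC share as covariates and errors clustered by chromosome, adjusted p = 1.50e-06, n = 3575 peaks). The medians were 82.4 with A, 80.6 with T, 68.9 with C and 66.8 with G. In the same fit the signal value was 0.962-fold per 10 bp between core and summit (interval 0.951 to 0.973, adjusted p = 8.80e-11, n = 3575). The median was 83.6 in the 1074 peaks with the core within 10 bp of the summit, 82.6 in the 1358 with the core 11 to 25 bp away and 72.7 in the 736 with the core 26 to 50 bp away. It was 72.5 in the 253 peaks with the core 51 to 75 bp away, level with the group before, and 62.8 in the 154 peaks with the core more than 75 bp away. The quartiles of these groups overlapped widely, so the bases and the position order the groups and do not separate single peaks. By the number of the 3 favoured bases, the medians were 65.1 with none, 73.6 with 1, 81.2 with 2 and 90.3 with 3.

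**Figure D2:**
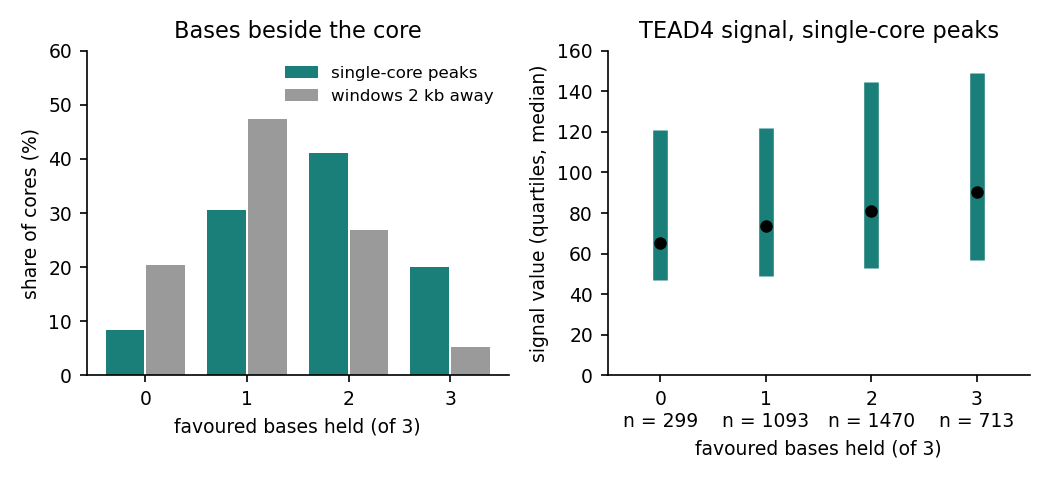
Left, share of cores (y axis, percent) that hold 0 to 3 of the favoured bases (C before the core, A or T after it, then G), in 3575 single-core peaks and in 1035 distant windows. Right, signal value of the single-core peaks by the number of favoured bases, with bars from the lower to the upper quartile and points at the median, which rises from 65.1 with none to 90.3 with 3.

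A further copy of the core with 1 mismatch, which did not overlap the exact core, was present in the 201-bp window of 2094 single-core peaks (58.6%, interval 56.95 to 60.2%). In the distant windows with 1 core this share was 46.2% (interval 43.2 to 49.2%). In the 11849 peaks with neither a TEAD core nor an AP-1 motif, called core-free here, a copy with 1 mismatch was present in 73.8%. The shares in core-free and single-core peaks do not count the same thing, since in a core-free peak the copy can be the only TEAD-like site and in a single-core peak it stands beside the exact core. Within 25 bp of the summit, the core-free peaks held GCATTCC in 15.9% and AAATTCC in 11.8% of cases, each of which differs from the core in 1 base.

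The position of this weaker copy was not even either. In the same orientation as the core, it started 9 bp to the 3′ side in 49 single-core peaks and 9 bp to the 5′ side in 38, which leaves 2 bases between the copies. In the opposite orientation, it started 8 bp to the 3′ side in 27 peaks, which leaves 1 base between. The other 133 combinations of orientation and offset from 7 to 40 bp held between 0 and 18 peaks, with a median of 8. The distant windows held the tandem arrangement in 7 of 1035 cases (0.676%, interval 0.328 to 1.39%), against 87 of 3575 single-core peaks (2.43%, interval 1.98 to 2.99%). With copies of at least 5 of the 7 letters counted, the 3 arrangements were again the most frequent, at 4.50%, 3.69% and 4.28% of the single-core peaks, against a median of 1.57% and at most 2.63% at the other offsets. In the distant windows these 3 arrangements stood at 1.45%, 1.16% and 1.64%, and another offset reached 3.96%. The arrangements were noticed in these counts and are given with no test.

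The 87 tandem peaks had a median signal value of 116.7 (quartiles 74.5 and 195), against 77.9 in the other single-core peaks, and the 27 inverted ones had a median of 119. Both ranges overlap the rest. Some of the strongest tandem peaks are shown because they carry this spacing, with both copies in capitals.
CCN2, chr6:131951441-131951487, plus strand: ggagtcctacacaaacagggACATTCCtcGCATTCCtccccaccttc
FSCN1, chr7:5591716-5591762, minus strand: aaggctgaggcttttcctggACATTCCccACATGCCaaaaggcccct
ETAA1, chr2:67389487-67389533, plus strand: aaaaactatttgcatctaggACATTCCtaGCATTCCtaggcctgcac
HOXC13 nearest, chr12:53845143-53845189, plus strand: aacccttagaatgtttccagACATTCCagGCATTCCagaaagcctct
SYNPO, chr5:150637734-150637780, minus strand: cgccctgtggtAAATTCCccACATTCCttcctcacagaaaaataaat
SOBP, chr6:107601114-107601160, minus strand: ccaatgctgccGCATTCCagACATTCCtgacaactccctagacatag
The first of them covered a TSS of CCN2, the connective tissue growth factor, and had a signal value of 617. The peak 920 bp from a TSS of FSCN1, which codes for the actin-bundling protein fascin, had a value of 566. That named for ETAA1, its nearest gene, was 7618 bp from a TSS of it, inside the lncRNA gene LINC01829, and had a value of 556. That near HOXC13 had a value of 726. That in SYNPO, which codes for the actin-associated protein synaptopodin, had a value of 370 and that in SOBP 326. The second copy was GCATTCC in 14 of the 87 tandem peaks, TCATTCC in 11 and ACATTCT in 10, and another form with 1 mismatch in the rest.

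**Figure D3:**
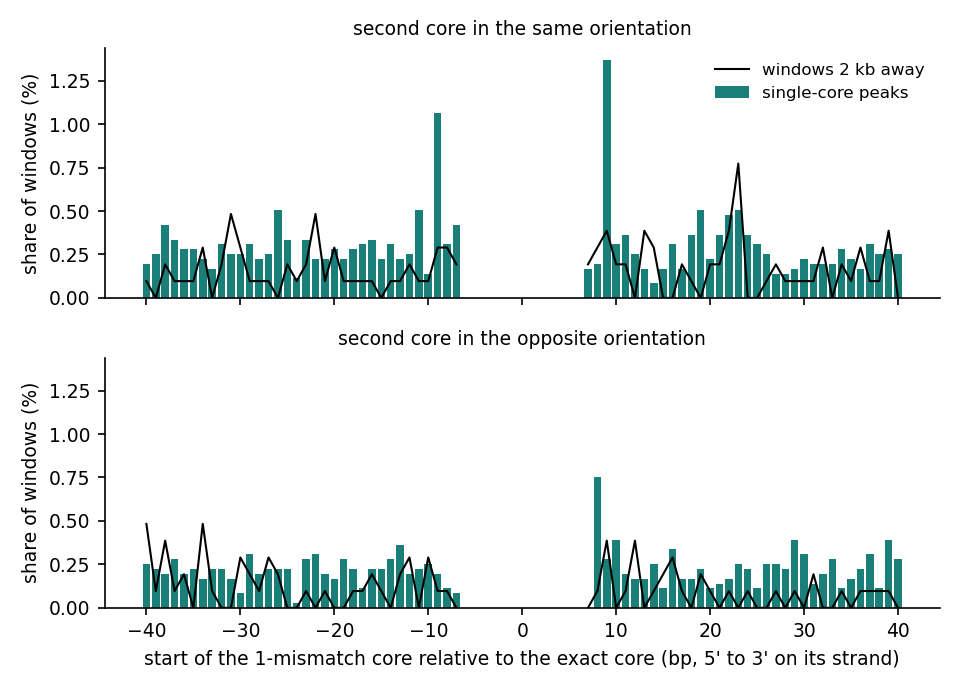
Share of windows (y axis, percent) with a copy of the TEAD core at 1 mismatch, by its start relative to the exact core (x axis, bp, along the strand of the exact core), in the same (top) and the opposite orientation (bottom), for 3575 single-core peaks (bars) and 1035 distant windows with 1 core (line). The tallest bars are 9 bp to either side in the same orientation (49 and 38 peaks) and 8 bp to the 3′ side in the opposite orientation (27 peaks).

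Single-core peaks had higher signal values than core-free peaks and lower ones than peaks with more cores or with an AP-1 motif beside the core. Their signal value had a median of 79.1 (quartiles 51.5 and 135, range 6.58 to 860), against 62.9 (quartiles 43.1 and 104) in core-free peaks, a 1.31-fold difference (95% confidence interval 1.28 to 1.34, linear model of the log2 signal value across all peaks clustered by chromosome, Benjamini-Hochberg adjusted p = 3.92e-120 over 3 contrasts, n = 21113). The 326 peaks with 2 or more cores and no AP-1 motif had a median of 93.1, and the single-core peaks were 0.840-fold of them (interval 0.764 to 0.924, adjusted p = 3.27e-04, n = 21113). The 892 peaks with 1 core and an AP-1 motif had a median of 90.0, and the single-core peaks were 0.865-fold of them (interval 0.824 to 0.908, adjusted p = 7.94e-09, n = 21113). The ranges of all these classes overlapped. Single-core peaks made up 22.5% of the top decile of the list by signal value (474 of 2111), 27 of the 100 strongest peaks, and 8.48% of the bottom decile (179 of 2112). The highest score for agreement between the replicates was given to 79.7% of single-core peaks and 73.6% of core-free peaks. A q-value above 0.05 was found in 27 single-core peaks (0.755%) and in 604 core-free peaks (5.10%).

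**Figure D4:**
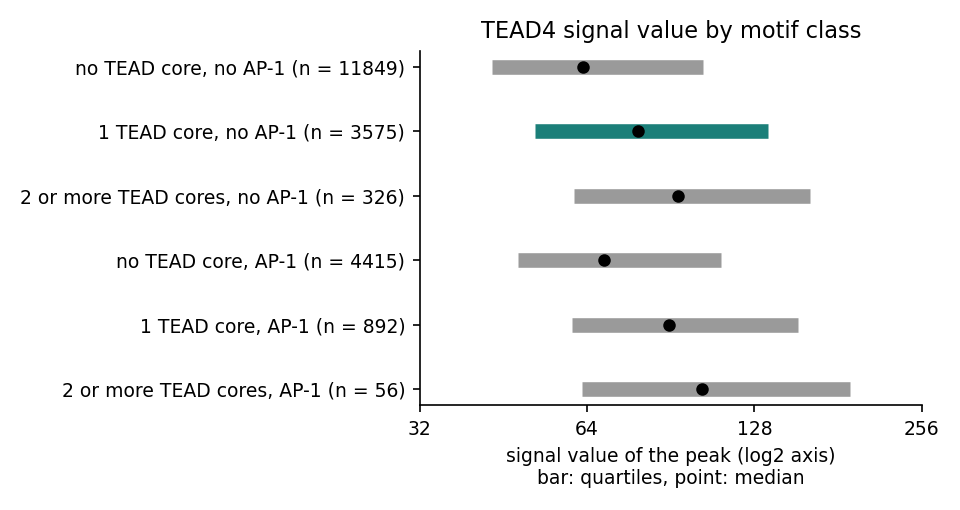
Signal value (x axis, log2 scale) of the TEAD4 peaks in 6 motif classes, by the number of TEAD cores and the presence of an AP-1 motif within 100 bp of the summit. Bars run from the lower to the upper quartile and points mark the median, which is 79.1 for the 3575 single-core peaks (coloured), 62.9 for core-free peaks and 90.0 for peaks with 1 core and AP-1.

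At the limit of the rule, the 56 single-core peaks with the core 88 to 97 bp from the summit had a median signal value of 61.5, and the 44 core-free peaks whose core lay in the next 10 bp beyond had one of 55.5. An AP-1 motif lay just beyond the window, up to 150 bp from the summit, in 122 single-core peaks (3.41%, interval 2.87 to 4.06%) and in 484 core-free peaks (4.08%, interval 3.74 to 4.46%).

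Single-core peaks were found near TSSs, some of them inside genes, as well as in introns and between genes. Of them, 990 (27.7%, interval 26.25 to 29.2%) had a protein-coding or lncRNA TSS no more than 2.5 kb away, 1572 (43.97%) had their summit in an intron further away, 939 (26.3%) lay between genes and 74 (2.07%) in other exons. This share was 27.5% in core-free peaks, and no difference passed the test (odds ratio 1.01, 95% confidence interval 0.924 to 1.11, adjusted p = 0.817, n = 21113). It was 17.6% in peaks with 1 core and an AP-1 motif, so that single-core peaks were more often near a TSS (odds ratio 1.79, interval 1.55 to 2.08, logistic model clustered by chromosome, adjusted p = 2.38e-14 over 2 contrasts, n = 21113). The median signal value of single-core peaks was 78.0 near a TSS, 79.7 in introns and 78.5 between genes. In core-free peaks these medians were 59.0, 63.4 and 65.5.

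Another TEAD4 summit lay within 10 kb of 1599 single-core peaks (44.7%, interval 43.1 to 46.4%), which was less often than for core-free peaks (50.4%, odds ratio 0.797, 95% confidence interval 0.754 to 0.844, logistic model clustered by chromosome, adjusted p = 8.97e-15, n = 21113). With overlapping peaks merged to 1 peak per region, the call was lost (odds ratio 0.995, adjusted p = 0.881, with n = 3456 single-core peaks kept). Of the single-core peaks, 389 (10.9%) overlapped another peak, against 2347 (19.8%) of the core-free peaks. Against peaks with 1 core and an AP-1 motif, where the share was 40.6%, the odds ratio was 1.18 (interval 1.03 to 1.37, adjusted p = 0.0201, n = 21113). This call was lost with a window of 50 bp (adjusted p = 0.149), with the 8-base site of the reporter as the core (adjusted p = 0.268) and with a limit of 5 kb (adjusted p = 0.117), each with n = 21113. The nearest other peak of the 1599 was core-free in 61.7% of cases, and core-free peaks were 56.1% of the list. It was itself single-core in 245 cases (15.3%), against 16.9% of the list. A nearest peak so close has a neighbour within 10 kb by definition, so the whole list is not its closest comparison. Of the 10024 peaks with such a neighbour, 5968 were core-free and 1599 single-core.

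Other motifs differed little in share between single-core and core-free peaks. Of 14 motifs searched on both strands, 4 passed the test (logistic model clustered by chromosome, Benjamini-Hochberg adjusted over 14). The GATA motif AGATAAG was found in 2.55% of single-core peaks and in 3.85% of core-free peaks (odds ratio 0.653, adjusted p = 1.72e-04, n = 21113), and in 3.49% of all peaks. The RUNX motif TGTGGTT was found in 9.20% and 10.5% (odds ratio 0.861, adjusted p = 0.00393, n = 21113), and in 9.53% of all peaks. The FOX motif TGTTTAC was found in 4.06% and 3.24% (odds ratio 1.26, adjusted p = 0.00552, n = 21113), with 3.52% of all peaks, and the E-box CAGCTG, read by basic helix-loop-helix factors, in 14.3% and 13.0% (odds ratio 1.11, adjusted p = 0.0352), with 13.5% of all peaks. The FOX motif begins with the letters TGT, in which the core read on its other strand, GGAATGT, ends. In 23 of the 145 single-core peaks that hold the FOX motif, it overlapped the core. Without matches that overlap the core, an alternative added after the data were seen, the odds ratios were 1.05 for FOX (adjusted p = 0.648) and 1.07 for the E-box (adjusted p = 0.197, n = 21113). This alternative takes matches only from peaks with a core. Under 10 other settings of the peak set, window, core and covariates, the E-box lost its call in 7 and GATA, RUNX and FOX in 3 each, and none of these 4 motifs passed with the 8-base site as the core. The other 10 motifs, among them those of ETS, SP/KLF, NFY, C/EBP, CRE, NFI, STAT, homeobox factors, the E-box CAGATG and the CArG box of SRF, had adjusted p-values from 0.0651 to 0.971. The absence of these letters says nothing of the factors.

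Genes of the Hippo pathway and of the myofibroblast program lay near single-core peaks. Of all 20007 protein-coding genes, 18.9% had a single-core peak within 50 kb of a TSS, 4.02% had one within 2.5 kb and 55.3% had any TEAD4 peak within 50 kb. Among 22 canonical targets of YAP and TEAD, 12 had a single-core peak within 50 kb and 20 had any peak. Among 24 genes of the Hippo pathway and TEAD cofactors the counts were 12 and 19, among 25 genes of the scar matrix 11 and 20, among 20 contractile and cytoskeletal genes 11 and 18, and among 22 profibrotic ligands and receptors 9 and 20. Among 20 genes of hepatocyte identity, 1 had a single-core peak within 50 kb (ASGR1, at 35441 bp, with a signal value of 53.0) and 4 had any peak. Any TEAD4 peak lay near 79.2% to 90.9% of the genes of the first 5 lists. Of genes with any peak within 50 kb, 34.1% of all protein-coding genes had a single-core one, and in the first 5 lists this share ran from 45.0% to 63.2%. At 2.5 kb it was 23.6% of all genes with any peak so close and 23.1% for scar matrix (3 of 13 genes), with 33.3% to 62.5% in the other 4 lists. The lists were chosen with earlier results of these data known, and no test was made of them. A TSS was the start of any annotated transcript, so it can lie inside its gene, away from the gene's 5′ end. This holds for the peaks named below at WWC1, RBMS3, PTPN14, LOXL2, COL12A1, MYH9, ACTN1, TGFB1 and PDGFRB.

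Of the 24 genes of the Hippo pathway and cofactors, 6 had a single-core peak no more than 2.5 kb from a TSS, against 4.02% of all genes. Any TEAD4 peak lay so close to 14 of the 24, against 17.1% of all genes, so the list was also rich in peaks of other classes. The cores at the genes of both coactivators and at AJUBA are shown because they lie at the pathway's own promoters.
YAP1, chr11:102110265-102110311, minus strand: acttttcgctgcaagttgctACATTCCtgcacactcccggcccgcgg
WWTR1, chr3:149736338-149736384, plus strand: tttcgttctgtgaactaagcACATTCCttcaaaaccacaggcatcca
AJUBA, chr14:22982873-22982919, minus strand: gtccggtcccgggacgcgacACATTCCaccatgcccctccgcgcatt
The peak at YAP1 was 26 bp from a TSS and had a signal value of 152, with the core 8 bp from the summit. That at WWTR1, which codes for TAZ, was 120 bp from a TSS and had a value of 71.0, and 2 other single-core peaks lay within 50 kb of this gene. The peak at AJUBA, a LIM protein that restrains the LATS kinases, was 206 bp from a TSS (149), and that at WWC1, which codes for the upstream regulator KIBRA, was 1356 bp away (188). The strongest in this list was the AMOTL2 peak shown above, with a signal value of 733 and its core 1 bp from the summit. LATS2 had its nearest single-core peak 25036 bp from a TSS (236). The TEAD4 gene itself had none within 50 kb and 2 peaks of other classes there.

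Of the 22 canonical targets, 5 had a single-core peak within 2.5 kb, against 4.02% of all genes. Any TEAD4 peak lay so close to 15 of the 22, against 17.1% of all genes. The signal values of the nearest single-core peaks of the 12 genes within 50 kb ran from 60.6 to 733. The CCN2 peak with the tandem copies reached 617, while that covering a TSS of TGFB2, the gene of a TGF-β ligand, had a value of 74.2. The peak 1404 bp from a TSS of RBMS3 had a value of 60.6. That 1534 bp from a TSS of PTPN14, an inhibitor of YAP, had one of 71.7. These 3 values were close to the median of single-core peaks. The peaks at RBMS3 and PTPN14 lay inside these genes, near internal transcript starts. CCN1, the other classical target of the CCN family, had its nearest single-core peak 31305 bp from a TSS (116). ANKRD1 had none within 50 kb and 4 peaks of other classes there.

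Of the 25 matrix genes, 3 had a single-core peak within 2.5 kb, against 4.02% of all genes. Any TEAD4 peak lay so close to 13 of the 25, against 17.1% of all genes. The peak that covered a TSS of SPARC, which codes for osteonectin, had a signal value of 114 and its core 9 bp from the summit.
SPARC, chr5:151686915-151686944, minus strand: taaacccctccACATTCCcgcggtccttca
The next nearest were at ELN (elastin, 611 bp, signal value 39.3), LOXL2 (a lysyl oxidase that crosslinks collagen, 2438 bp, 61.6), TNC (tenascin C, 2909 bp, 48.7) and COL12A1 (a fibril-associated collagen, 3318 bp, 89.9). The core at SPARC was followed by C and that at ELN by G.

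Of the 20 contractile and cytoskeletal genes, 6 had a single-core peak within 2.5 kb, against 4.02% of all genes. Any TEAD4 peak lay so close to 14 of the 20, against 17.1% of all genes. The nearest single-core peaks of the 11 genes within 50 kb had signal values from 31.9 to 359, the highest at ACTN4, another α-actinin. Those that covered or lay nearest to a TSS were at LMOD1 (leiomodin, 0 bp, signal value 250), ZYX (zyxin, 0 bp, 41.2), MYH9 (non-muscle myosin heavy chain, 478 bp, 263), CNN2 (calponin, 1792 bp, 313) and ACTN1 (α-actinin, 2102 bp, 151.2), so that 4 of the 5 were above the median of 79.1 of all single-core peaks. The peaks at MYH9, CNN2 and ACTN1 lay inside these genes.
LMOD1, chr1:201946648-201946694, plus strand: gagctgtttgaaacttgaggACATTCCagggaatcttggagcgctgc
MYH9, chr22:36329599-36329645, plus strand: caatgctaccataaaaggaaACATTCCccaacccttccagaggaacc
CNN2, chr19:1028648-1028694, minus strand: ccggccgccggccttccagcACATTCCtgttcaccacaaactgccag
ACTA2, which codes for α-smooth muscle actin, had no single-core peak within 50 kb and 2 peaks of other classes there.

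Of the 22 profibrotic ligands and receptors, 5 had a single-core peak within 2.5 kb, against 4.02% of all genes. Any TEAD4 peak lay so close to 8 of the 22, against 17.1% of all genes. The nearest single-core peaks of the 9 genes within 50 kb had signal values from 43.7 to 140, the highest at HBEGF, an EGF-like ligand. Beside TGFB2, the 4 nearest were at TGFBR1 (a TGF-β receptor, 626 bp, signal value 54.7), TGFB1 (1813 bp, 77.2), PDGFRB (a PDGF receptor, 1908 bp, 53.5) and PDGFC (2104 bp, 48.8). All 5 were below the median of 79.1. The core at TGFB1 was 56 bp from the summit, the farthest of the 5.

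Single-core peaks were found on every chromosome of the list except Y, where they were 0 of 12 peaks (Wilson upper bound 24.2%). Their share among the peaks of a chromosome ran from 14.8% (chromosome 5) to 20.2% (chromosome 17). Their windows had a median GC content of 45.3%, against 44.3% in core-free peaks.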

How the data were processed

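The authors mapped reads of TEAD4 ChIP-seq and input from LX-2 cells to hg38 with Chromap, ran the IDR pipeline of ENCODE on replicates 1 and 3 and deposited 1 list of peaks. The deposited score is the scaled IDR (irreproducible discovery rate, up to 1000). The deposited signal value and −log10 q-value are the values of the authors' peak caller, which is not given in the sources used here. The meaning of each column follows its place in the narrowPeak layout. The list has no value per sample, so the depth per sample is unknown.

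All sequences were read from hg38, in which all peaks lay inside the chromosomes, and genes from GENCODE release 44. Cores were searched in windows of 201 bp about the summits and in 41123 windows 2000 bp to either side that touch no peak. Linear models of the log2 signal value and logistic models were fitted across all peaks in 6 motif classes, with standard errors clustered over 24 chromosomes, two-sided, and Benjamini-Hochberg adjusted within each family of contrasts at a threshold of 0.05. The within-class fit used the single-core peaks only. Distances to a TSS ran from the nearest end of the peak to the start of the nearest annotated transcript. Intervals on shares are Wilson 95% intervals. The functions were tested on simulated data with known answers. Python 3.11.15 with numpy 2.4.6, pandas 2.3.3, statsmodels 0.14.6 and matplotlib 3.10.9 was used.

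The members, motifs, gene lists and tests were chosen with earlier results of these data known. Named were the protein-coding genes nearest to the 10 strongest single-core peaks and, for each gene list, the genes of the 5 peaks nearest to a TSS. The genes of the tandem examples are outside this rule, as are CCN1, ANKRD1, LATS2, TEAD4, ACTN4, HBEGF and ACTA2, chosen after their values were seen. Alternatives changed the set of peaks, the window, the core, distances, TSSs and covariates.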

Additional observations from a re-analysis of the deposited data

How the results depend on the processing

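No paired analysis was possible because both replicates were joined into 1 value per peak, and for the same reason no replicate could be left out. Of 139 results under an alternative, 121 kept their direction and their side of the threshold, or a count within 1.5 times. The signal value against core-free peaks and against peaks with 1 core and AP-1, the position of the core, the base after it and both relations within the single-core peaks kept theirs under all alternatives run. Against core-free peaks the signal value was 1.15-fold with 1 peak per merged region, and 1.35-fold at most. With the 6-base core CATTCC there were 6203 single-core peaks, and with all 8 bases of the reporter site 1619. With those 8 bases, the signal value against peaks with 2 or more cores was 0.854-fold (adjusted p = 0.0833, n = 21113). The odds ratio of a TSS within 2.5 kb against core-free peaks, 1.01 and not past the threshold, fell below 1 with 1 peak per merged region (0.991), a window of 150 bp (0.998), the 8-base site (0.888), GC as a covariate (0.974), a limit of 1 kb (0.931) and protein-coding TSSs only (0.999), never past the threshold. For another peak within 10 kb, the odds ratio against core-free peaks was 0.995 with merged regions, and that against peaks with 1 core and AP-1 lost its call with a window of 50 bp (1.16), the 8-base site (1.12) and a limit of 5 kb (1.12). Of 14 motifs, 2 passed with the highest score only (GATA and FOX), 2 with a window of 50 bp (RUNX and FOX), 1 with the 8-base site (SP/KLF, odds ratio 0.518) and 2 above the median signal value (RUNX and the E-box CAGCTG). The FOX odds ratio was 0.948 with the 6-base core, and that of STAT, whose letters overlapped the core in 133 single-core peaks, was 0.677 (adjusted p = 2.12e-05, n = 21113) without such overlaps, an alternative chosen after seeing the data that takes matches only from peaks with a core, against 1.02 with them. Of 130 genes in the 6 lists, 53 had a single-core peak within 50 kb, 36 within 10 kb and 23 within 2.5 kb. The cause of these changes was not tested. The planned check of repeat-masked bases was not run, as the genome sequence used here does not mark repeats.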

Other observations

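Of markers of cell types, a single-core peak lay no more than 50 kb from a TSS of 2 of 8 genes of stellate cells and myofibroblasts (COL1A1 and PDGFRB), 0 of 6 of hepatocytes, 1 of 4 of endothelial cells (VWF) and 1 of 4 of macrophages (PTPRC). Any TEAD4 peak lay within 50 kb of 7, 1, 3 and 4 of them. Over all protein-coding genes these shares were 18.9% for a single-core peak and 55.3% for any peak. A peak list holds no expression, so the cell type in the labels could not be checked against it.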
